A study of Mus musculus with 12 samples.

Results

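The histone genes of the clusters encode the core histones H2A, H2B, H3 and H4 and the linker histone H1, and they sit in tandem groups in the mouse genome. Members were all symbols beginning with Hist1h, Hist2h, Hist3h or Hist4h in the platform annotation that had at least 1 probeset (a group of probes read as 1 value) given to that symbol alone. Of 69 such symbols, 30 qualified, among 23102 genes measured in all: 6 of 6 H1 symbols, 8 of 19 H2A symbols, 8 of 19 H2B symbols, 0 of 12 H3 symbols and 8 of 13 H4 symbols. The other 39 symbols were represented only by probesets given to several symbols at once, because near-identical copies share probes. One such probeset carried 13 symbols. By RefSeq annotation of GRCm38.p6, 23 members lay on chromosome 13, 5 on chromosome 3, 1 on chromosome 11 and 1 on chromosome 6.

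The samples were oral tumours from F1 mice of C57BL/6 and FVB parents, all of them given tamoxifen intraperitoneally. One group of 6 tumours, written KHR + tamoxifen, expressed RAS together with iHPV, which a second label describes as HPV E6. The group it was compared with, 6 tumours written KR + tamoxifen, expressed RAS without it. Total RNA of each tumour was read on 1 Affymetrix Mouse Gene 2.0 ST array at exon level. What the letters K, H and R stand for, which promoter drives each transgene, and how old the mice were is not stated in the labels. Nor do the labels say that each tumour had its own animal, so a p-value here measures only the spread from tumour to tumour, which may in part be technical. Values are log2 intensities, and a change is the KHR mean minus the KR mean.

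Nucleosomes wrap DNA around an octamer of the core histones, and H1 binds the DNA between them. Most cluster genes are replication-dependent: their transcription and mRNA stability rise as cells enter S phase, under the coactivator NPAT at histone locus bodies, and their mRNAs end in a conserved stem-loop bound by SLBP in place of a poly(A) tail. A few cluster genes, Hist1h1t, Hist1h2aa and Hist1h2ba, encode testis histones. The E6 protein of high-risk papillomaviruses is best known for directing p53 to degradation, while RAS drives mitogenic signalling. The labels describe biotin-labelled cRNA prepared from total RNA by the standard Affymetrix protocol. The labels do not say whether labelling was primed on poly(A) tails, and the part of priming in the results was not tested. In whole tumours, fewer cells of a type and less RNA per cell cannot be told apart.

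The proximal promoters are shown for 6 members described below, from the H1, H2A, H2B and H4 families and the testis genes. Stretches are from RefSeq (GRCm38.p6), 5′ to 3′ on the gene's strand, ending at the base before the annotated start. Capitals mark the motifs searched on both strands: the TATA box (TATAA), the CCAAT box (CCAAT), the octamer (ATTTGCAT), the core of H4 site II (GGTCCG) and the H1 box (AAACACA). Neighbouring capitals in TTATAA belong to a TATA match on each strand. Hist1h1e (linker histone H1) lies at chr13:23622559-23622808, minus strand. Hist2h2ab (H2A) lies at chr3:96219635-96219884, plus strand. Hist2h2ac (H2A), at chr3:96220881-96221071 on the minus strand, is cut at 191 bases, where its divergent partner Hist2h2be starts. Hist1h2bk (H2B), at chr13:22035644-22035820 on the plus strand, is cut at 177 bases, where its divergent partner Hist1h2ah starts. Hist4h4 (H4) lies at chr6:136804432-136804681, minus strand. Hist1h2aa (testis H2A), at chr13:23934237-23934436 on the plus strand, is cut at 200 bases, short of the 5′ end of its divergent partner Hist1h2ba.
Hist1h1e: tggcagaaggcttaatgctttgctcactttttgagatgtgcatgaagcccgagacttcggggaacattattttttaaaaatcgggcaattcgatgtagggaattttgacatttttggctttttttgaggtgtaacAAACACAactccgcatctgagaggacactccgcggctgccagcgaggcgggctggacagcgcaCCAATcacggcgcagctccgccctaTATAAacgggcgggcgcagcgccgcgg
Hist2h2ab: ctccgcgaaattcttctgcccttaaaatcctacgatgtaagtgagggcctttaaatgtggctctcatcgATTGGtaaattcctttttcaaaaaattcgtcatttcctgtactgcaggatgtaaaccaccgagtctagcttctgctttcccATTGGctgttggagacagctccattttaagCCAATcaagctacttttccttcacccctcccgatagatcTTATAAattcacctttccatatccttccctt
Hist2h2ac: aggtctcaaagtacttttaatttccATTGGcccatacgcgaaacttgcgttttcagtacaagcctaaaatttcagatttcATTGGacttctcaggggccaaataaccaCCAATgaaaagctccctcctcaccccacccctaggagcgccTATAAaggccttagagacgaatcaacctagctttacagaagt
Hist1h2bk: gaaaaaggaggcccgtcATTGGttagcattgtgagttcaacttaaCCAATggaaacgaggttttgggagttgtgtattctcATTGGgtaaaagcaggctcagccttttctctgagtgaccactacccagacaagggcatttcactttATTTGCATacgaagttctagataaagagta
Hist4h4: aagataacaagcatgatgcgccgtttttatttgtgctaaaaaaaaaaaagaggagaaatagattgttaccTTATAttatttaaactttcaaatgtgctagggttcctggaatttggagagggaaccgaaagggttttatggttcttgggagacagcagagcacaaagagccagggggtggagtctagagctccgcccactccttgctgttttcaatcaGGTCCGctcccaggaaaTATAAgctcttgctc
Hist1h2aa: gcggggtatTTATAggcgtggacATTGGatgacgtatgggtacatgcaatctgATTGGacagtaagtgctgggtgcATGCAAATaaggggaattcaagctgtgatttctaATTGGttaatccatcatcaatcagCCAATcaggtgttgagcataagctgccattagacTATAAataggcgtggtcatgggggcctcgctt

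RefSeq promoter windows of 300 bases, 250 before and 50 after the start, matched 27 of the 30 members; Hist1h2al, Hist2h2be and Hist2h4 had none in the table. The TATA box was present in 24 of 27 windows (88.9%), against 24.9% of 32851 windows of all genes. The CCAAT box was present in 21 of 27 (77.8%, against 37.4%), in all 6 H1, 7 H2A and 7 H2B windows but in 1 of 7 H4 windows. The octamer was present in 9 of 27 (33.3%, against 1.74%), in 4 of 7 H2A and 5 of 7 H2B windows and in none of the H1 or H4 windows. The H4 site II core was present in 6 of 7 H4 windows and in 1 H2B window, against 8.25% of all windows. The H1 box was present in 5 of 6 H1 windows, 1 of 7 H2A and 2 of 7 H2B windows, against 7.18% of all windows. Windows overlap for the divergent pairs Hist1h2ah with Hist1h2bk and Hist1h2aa with Hist1h2ba. A site in the overlap counts for both genes, so H2A and H2B counts are not independent. The octamer of the Hist2h2ac window lies outside the stretch printed for that gene. A match describes letters in a window and is not shown to be a bound site.

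No cluster histone gene passed the test between KHR and KR tumours in either direction, 0 of 30, while the KHR mean lay slightly above the KR mean for most. Limma's test with Benjamini-Hochberg adjustment over 23102 genes called 863 genes (3.74%) at an adjusted p under 0.05, with 2.71% called higher in KHR and 1.03% lower. At an unadjusted p under 0.05, 5 members (16.7%), namely Hist1h1e, Hist1h1b, Hist2h2ab, Hist2h2ac and Hist1h2bk, were higher, against 9.64% of all genes, and none was lower, against 6.21%. The change was above 0 for 25 of 30 members (83.3%), against 51.0% of all genes. The median change of the members was 0.19, against 0.0045 over all genes, and the members ranged from -0.15 to 1.10. The change exceeded 0.5 for 1 member, Hist2h2ac. The groups did not overlap for 1 member, Hist2h2ab, with all KHR arrays above all KR arrays; 1.83% of all genes showed that. No member lay below in all KHR arrays, against 0.840% of all genes. Standard errors ran from 0.0743 to 0.335, with a median of 0.146. Members share probes, clusters and arrays, and they are not replicates of the condition.

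Intervals per gene put a limit on the size of the change in a gene's median over probesets. The upper 95% bound of the change was below 1, a doubling of intensity, for 29 of 30 members. It was also below 0.93, the median change of 37 DNA replication genes, for 29 of 30. Hist2h2ac was the exception in both counts. The interval covered 0 for 25 members. These intervals come from the limma fit and are not adjusted for the number of genes. They reflect the spread between arrays and not differences between a gene's probesets. For Hist1h1c the upper bound was 0.05, while 2 of its 3 probesets gave changes of 0.87 and 0.49. Of the 30 members, 20 lay above the median level of all genes, 4.98. For a dimmer member the interval bounds the probe signal and need not bound the change of its transcript.

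**Figure D1:**
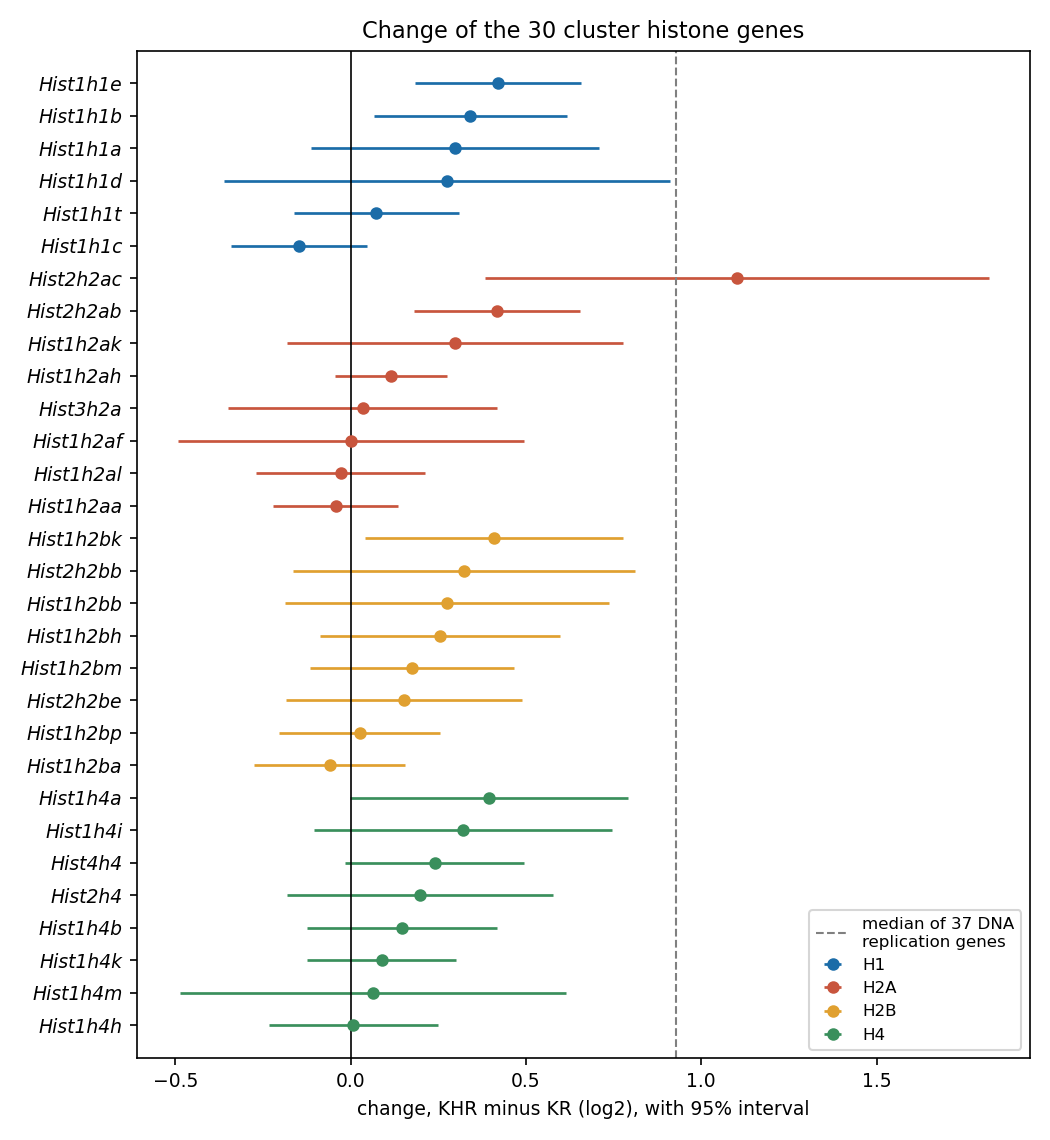
Change of each of the 30 members, KHR minus KR in log2 units (x axis), with the 95% interval from limma as a bar and the family as the colour; the dashed line is the median change of 37 DNA replication genes, 0.93. Points lie to the right of 0 for 25 members, and the interval of Hist2h2ac alone reaches past the dashed line.

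The 6 H1 genes encode linker histones, which compact the fibre between nucleosomes. None was called, 5 of 6 changes were above 0, and the family median was 0.29, from -0.15 to 0.42. The family's median level on an array was 7.80 at the lowest, 8.03 at the median and 8.47 at the highest in KHR, against 7.40, 7.72 and 7.93 in KR, so the groups overlapped. Hist1h1e, a somatic H1, had 7.43, 7.67 and 7.83 (lowest, median, highest) in KHR and 6.98, 7.22 and 7.59 in KR. Of the KHR arrays, 5 of 6 lay above the highest KR array, which was KR 1. Its change was 0.42 ± 0.11 (SE, n = 6 each), with a limma adjusted p of 0.0514. The adjusted p moved between 0.0197 and 0.107 as arrays were left out in turn, and it passed without KHR 5 and without KR 1. Over 23 alternative settings, which include these, the lowest change was 0.15 and the highest limma adjusted p 0.612, with 6 settings passing. The gene's 4 probesets gave changes from -0.01 to 0.57.

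Hist1h1b, a somatic H1 known to be tied to replication, had the highest H1 values: 9.86, 10.23 and 10.60 in KHR, against 9.68, 9.81 and 10.10 in KR. The groups overlapped, with 4 of 6 KHR arrays above every KR array. Its change was 0.34 ± 0.13, with a limma adjusted p of 0.188. Hist1h1a and Hist1h1d, also somatic, had changes of 0.30 ± 0.19 and 0.28 ± 0.30, with limma adjusted p of 0.509 and 0.734. Hist1h1c, a further somatic H1, was the one H1 gene with a change below 0, at -0.15 ± 0.09 (limma adjusted p of 0.485). It is singled out here after its values were seen, because its 3 probesets differed. One probeset ran from 7.02 to 8.32 in KHR, against 6.25 to 6.96 in KR, with no overlap. That probeset gave 0.87 ± 0.21 and the smallest adjusted p of any member probeset, 0.0864, when all 269751 probesets were tested one by one. The other probesets gave 0.49 and -0.15, so the sign of the gene's value rested on the choice of the median, and a mean over probesets gave a change above 0.

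The 8 H2A genes showed the widest range, from -0.04 to 1.10, around a median of 0.07, and 5 of 8 changes were above 0. None was called. The family's median level per array was 5.63, 5.79 and 5.96 in KHR, against 5.06, 5.36 and 5.65 in KR. Of the KHR arrays, KHR 4 alone lay below the highest KR array. Hist2h2ab had 5.74, 5.99 and 6.40 in KHR, against 5.48, 5.59 and 5.68 in KR. Every KHR array was above every KR array, and KR values were closely grouped. Its change was 0.42 ± 0.11, with a limma adjusted p of 0.0536, which ran from 0.0355 to 0.114 as arrays were left out and passed without KHR 2 and without KHR 5.

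Hist2h2ac, a neighbour of Hist2h2ab on chromosome 3, had the largest change among the members. It had 6.02, 6.49 and 7.39 in KHR, against 4.64, 5.29 and 6.72 in KR. The highest KR array, KR 1, lay above 3 of the 6 KHR arrays. The change was 1.10 ± 0.33, or 2.15-fold, with a 95% interval from 0.38 to 1.82 and a limma adjusted p of 0.0946. Without KR 1 the adjusted p was 0.0227, and over the arrays left out in turn it reached 0.188. Its 3 probesets gave -0.19, 0.60 and 1.16, and the lowest change over the alternative settings was 0.49.

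Hist1h2af had the highest H2A values, 9.28, 10.24 and 10.76 in KHR and 9.73, 10.01 and 10.88 in KR, and its change was -0.0001 ± 0.23, with a limma adjusted p of 1.00. The groups spanned nearly the same range. Hist1h2ak gave 0.30 ± 0.22, Hist1h2ah gave 0.11 ± 0.07 and Hist3h2a gave 0.03 ± 0.18, all 3 H2A genes on a single probeset. Hist1h2al, which RefSeq lists as a transcribed pseudogene, gave -0.03 ± 0.11. Limma adjusted p for these 4 genes lay above 0.5.

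Of the 8 H2B genes, 7 had a change above 0 and none was called. Their median change was 0.22, from -0.06 to 0.41. The family's median level per array was 5.25, 5.49 and 6.06 in KHR, against 4.99, 5.39 and 5.52 in KR. Hist1h2bk, an H2B gene of the large cluster, had 6.76, 7.58 and 8.08 in KHR, against 6.98, 7.08 and 7.28 in KR. All KHR arrays but KHR 5 lay above every KR array, and KHR 5 was the lowest of the 12. The change was 0.41 ± 0.17, with a limma adjusted p of 0.251, and without KHR 5 it was 0.56 with an adjusted p of 0.0285. On the same array, KHR 5, the mean of 20 skeletal muscle markers was the highest, 8.04, against 5.70 to 7.29 on the other KHR arrays and 5.63 to 6.92 on the KR arrays. In the fit with the muscle mean as a covariate, Hist1h2bk was not called. The part of muscle content in its KHR 5 value was not tested.

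Hist1h2bb had the highest H2B values, from 8.79 to 10.18 in KHR, against 8.75 to 9.30 in KR. KHR 1 and KHR 3 were the arrays above the KR range. The change was 0.28 ± 0.21, with a limma adjusted p of 0.606. Hist1h2bh had 5.94, 6.23 and 6.83 in KHR, against 5.86, 5.99 and 6.39 in KR, a change of 0.26 ± 0.16 with a limma adjusted p of 0.491. Again KHR 1 and KHR 3 were the arrays above the KR range. The remaining somatic H2B genes gave 0.32 ± 0.23 (Hist2h2bb), 0.18 ± 0.14 (Hist1h2bm), 0.15 ± 0.16 (Hist2h2be) and 0.03 ± 0.11 (Hist1h2bp).

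All 8 H4 genes had changes above 0, and none was called or passed an unadjusted p of 0.05. The family median was 0.17, from 0.01 to 0.39. Its median level per array was 4.78, 5.20 and 5.47 in KHR, against 4.61, 4.90 and 5.14 in KR. H4 genes encode essentially the same protein and differ in their transcripts and promoters. Hist1h4a had 4.46, 4.72 and 5.58 in KHR, against 4.07, 4.44 and 4.80 in KR. KHR 2 and KHR 3 alone were above the KR range. Its change was 0.39 ± 0.18, with a limma adjusted p of 0.320.

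Hist4h4, a single H4 gene on chromosome 6, had 5.40, 5.78 and 6.04 in KHR, against 5.26, 5.51 and 5.73 in KR. Here 4 of 6 KHR arrays were above the highest KR array, KR 6. The change was 0.24 ± 0.12, with a limma adjusted p of 0.353. Hist1h4k had the highest H4 values, 12.54, 12.81 and 12.90 in KHR, against 12.43, 12.68 and 12.88 in KR. Its groups lay over each other, and the change was 0.09 ± 0.10 with a limma adjusted p of 0.748. The other H4 changes were 0.32 ± 0.20 (Hist1h4i), 0.20 ± 0.18 (Hist2h4), 0.15 ± 0.13 (Hist1h4b), 0.06 ± 0.26 (Hist1h4m) and 0.01 ± 0.11 (Hist1h4h).

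**Figure D2:**
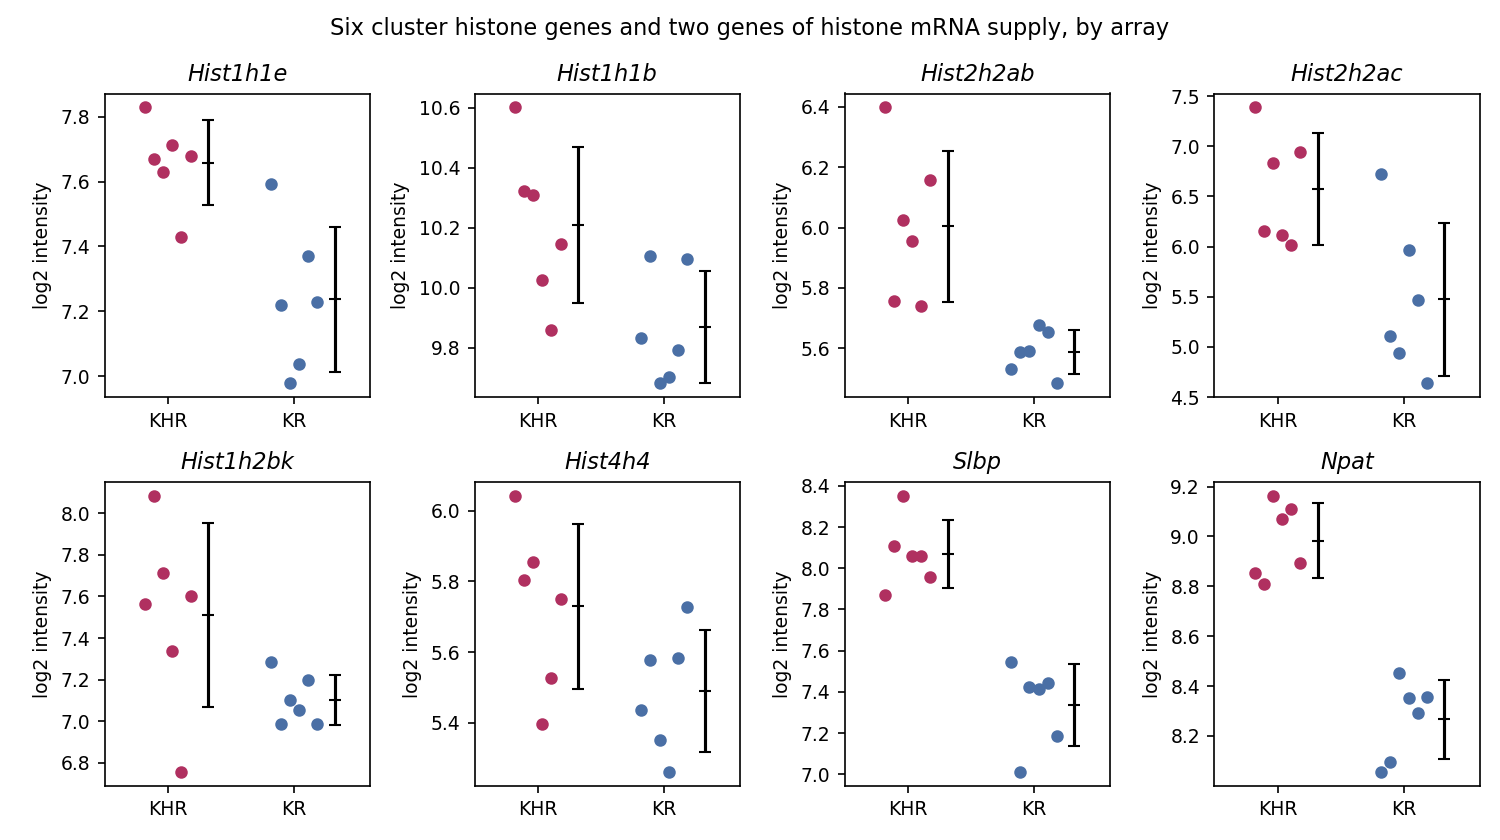
Values per array in log2 intensity (y axis, a separate range in each panel) for 6 members and for Slbp and Npat, KHR arrays on the left and KR arrays on the right of each panel; the bar beside the points is the mean with its SD over 6 arrays. Hist2h2ab, Slbp and Npat show no overlap between groups, and the other 5 panels do.

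The testis genes had low values in both groups. Hist1h1t had 3.41, 3.68 and 3.84 in KHR, against 3.40, 3.53 and 3.88 in KR, and its change was 0.07 ± 0.11. Hist1h2aa had 3.93, 4.05 and 4.18 in KHR, against 3.92, 4.11 and 4.24 in KR, a change of -0.04 ± 0.08. Hist1h2ba had 3.89, 3.95 and 4.22 in KHR, against 3.89, 4.09 and 4.32 in KR, a change of -0.06 ± 0.10. Limma adjusted p for these genes were 0.824, 0.876 and 0.849, and each gene's groups overlapped almost wholly. The median level of all genes was 4.98. The mean of 10 male germ cell markers was 3.95 to 4.26 in KHR and 3.98 to 4.20 in KR, with 0 of 10 called.

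H3 could be described only through probesets shared by several symbols. There were 21 of these, with changes from -0.45 to 0.78 and a median of 0.06, and 14 were above 0. In the fit that kept shared probesets as features of their own, 23160 in all, 2.70% of features were called higher and 1.03% lower. Of the H3 probesets 2 were called, in opposite directions. One, given to 8 Hist1h3 and Hist2h3 symbols, had from 5.59 to 7.05 in KHR, against 5.13 to 5.73 in KR. Its groups overlapped on 1 KHR array, KHR 5, and its change of 0.78 ± 0.20 had a limma adjusted p of 0.0481. The other, given to the same number of H3 symbols, had 8.21, 8.46 and 8.66 in KHR, against 8.71, 8.90 and 9.05 in KR. All KHR arrays were below all KR arrays, and the change of -0.45 ± 0.10 had a limma adjusted p of 0.0272. When each probeset was tested by itself among 269751, of which 0.616% were called higher and 0.267% lower, neither H3 probeset was called, and the lower of their adjusted p was 0.1215. Which H3 copies gave either signal cannot be told apart with these probes.

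Shared probesets of the other families gave a similar spread. Changes were above 0 for 13 of 16 distinct H2A probesets (median 0.11), 10 of 14 H2B probesets (median 0.08) and 7 of 7 H4 probesets (median 0.18), and none was called. No probeset was shared among H1 symbols alone. A further 2 probesets carry Hist1h1e together with the H2B symbols Hist1h2bc, Hist1h2be and Hist1h2bg, and they are left out of the family counts. Of 134 probesets that carry a cluster histone symbol, 65 carry a single symbol and 69 carry several, and 9 of the shared ones hold the same values as another on all arrays. Tested by themselves, 0 of the 125 distinct probesets were called, and 16 had an unadjusted p under 0.05, against 12.7% of all 269751 probesets.

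Within members, probesets often differed in sign. Of the 18 members with at least 2 probesets, 8 had all changes on 1 side of 0, and the median distance between a member's lowest and highest probeset change was 0.34. That distance exceeded 0.5 for 3 members: 1.35 for Hist2h2ac, 1.01 for Hist1h1c and 0.59 for Hist1h1e. The other 12 members rest on 1 probeset. Their median change was 0.10 with 8 of 12 above 0, and members with more probesets had a median of 0.26 with 17 of 18 above 0. By location, the 5 members on chromosome 3 had a median change of 0.32 and the 23 on chromosome 13 a median of 0.15.

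**Figure D3:**
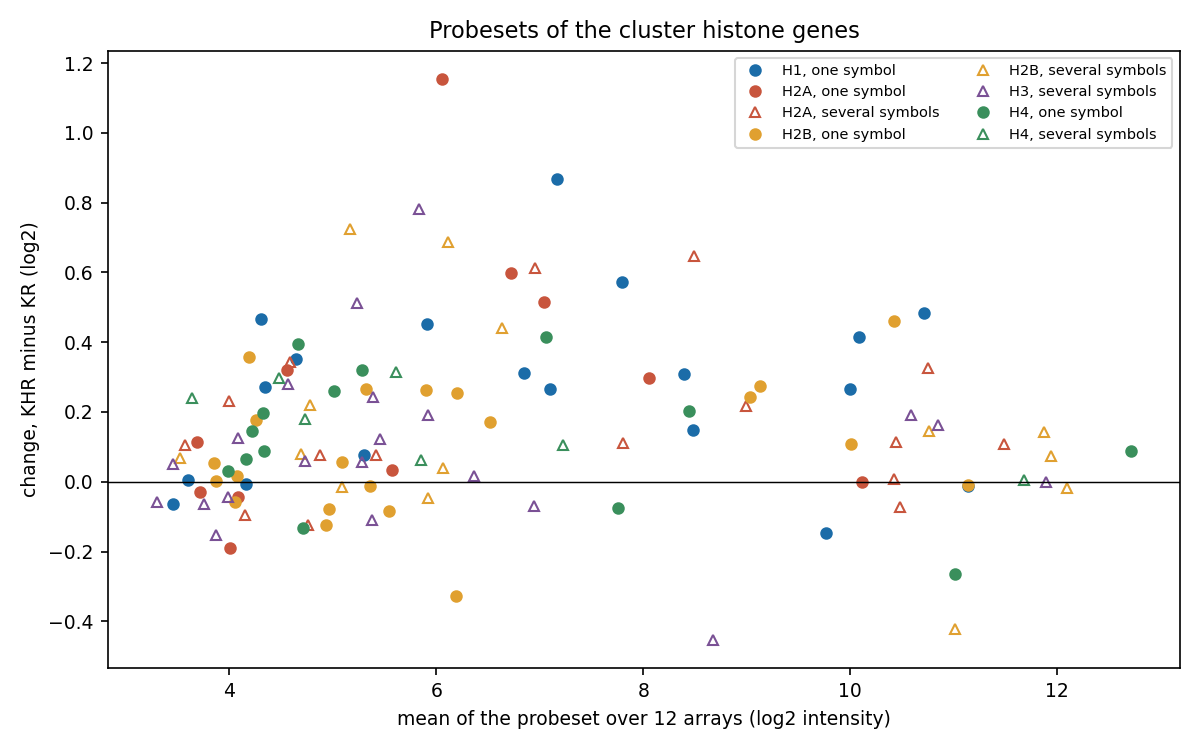
Change of the distinct histone probesets, KHR minus KR in log2 units (y axis), against their mean over 12 arrays in log2 intensity (x axis). Filled circles carry 1 symbol, open triangles several, and colour gives the family. The 2 probesets that carry both H1 and H2B symbols are not drawn. Changes were above 0 for 93 of all 125 distinct probesets and ran from -0.45 to 1.16.

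Divergent H2A and H2B genes share the short stretch between their starts, and 3 such pairs were measured on both sides. Hist2h2ac and Hist2h2be, 191 bases apart, had changes of 1.10 ± 0.33 and 0.15 ± 0.16. Hist1h2ah and Hist1h2bk, 177 bases apart, had changes of 0.11 ± 0.07 and 0.41 ± 0.17. Hist1h2ah rests on 1 dim probeset, from 3.55 to 3.82 over all arrays, where the median level of all genes was 4.98. Hist1h2aa and Hist1h2ba, 280 bases apart, had changes of -0.04 ± 0.08 and -0.06 ± 0.10. The annotated start of Hist1h2ba is its start codon, so the 280 bases are not a distance between transcription starts. The difference within a pair was not tested, and probe levels of different genes are not comparable as amounts.

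The members did not move as 1 block over the arrays. KHR 1 was the highest of the 12 arrays for 11 members, and its median deviation from the members' means was 0.27. KHR 5 was the lowest for 5 members, KR 6 for 7 and KR 3 for 6. KHR 4 and KHR 5 had median deviations of -0.15 each, inside the KR range of -0.19 to -0.03. With group means removed, the median correlation over 12 arrays was 0.18 among 99 pairs within a family and 0.18 among 336 pairs between families. The highest was 0.92, between Hist1h2af and Hist1h4m, which are the same 2 members with KR 1 far above the other KR arrays. These correlations share the arrays and their scaling and are given as descriptions.

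**Figure D4:**
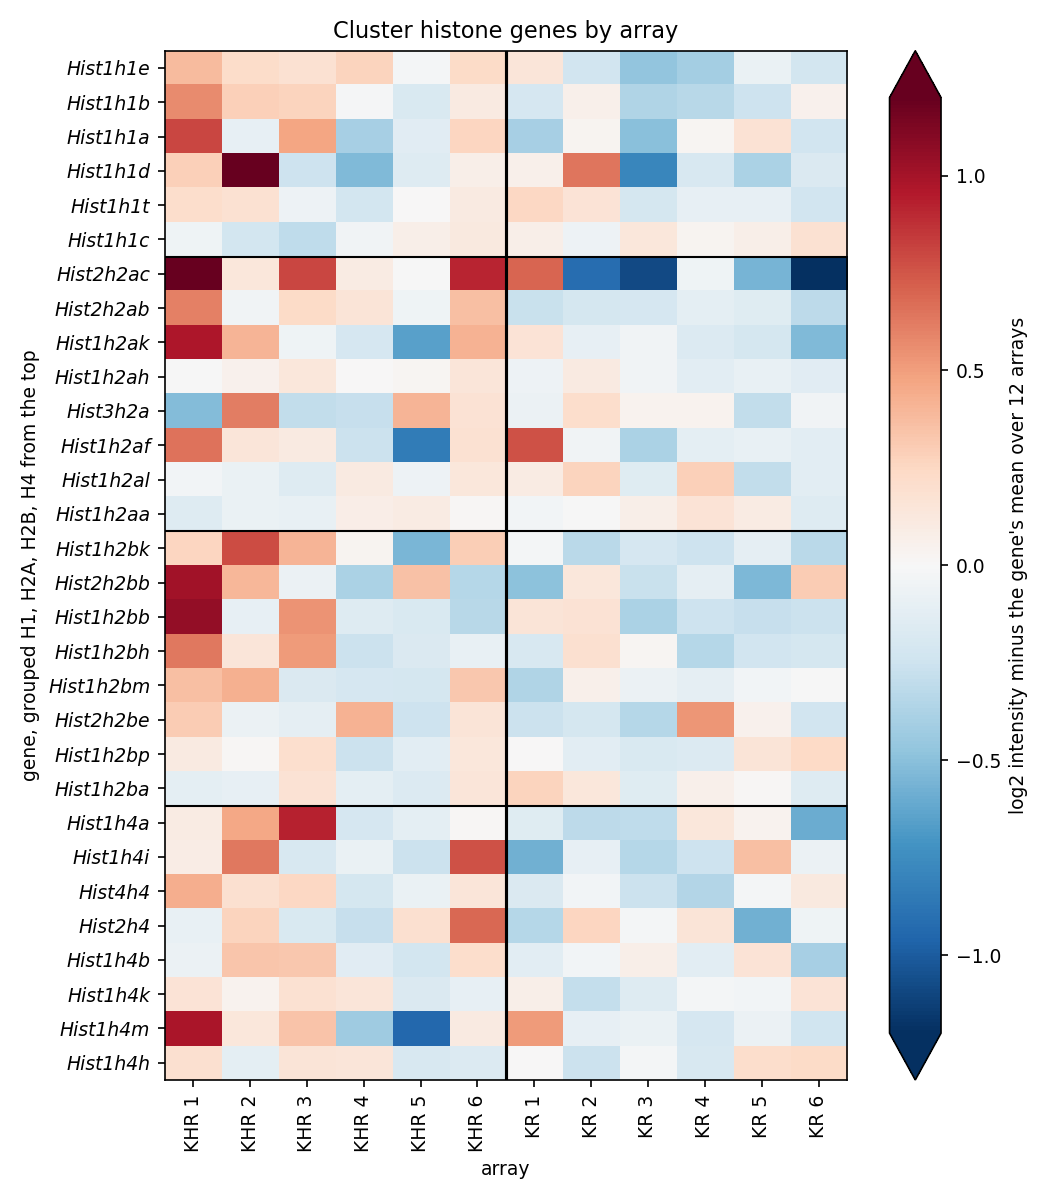
Each member's log2 intensity minus its mean over the 12 arrays (colour), with members as rows grouped H1, H2A, H2B and H4 from the top and arrays as columns, KHR left of KR. The KHR 1 column holds the most maxima (11 of 30 members), and KHR 4 and KHR 5 have median deviations of -0.15 each.

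Genes that accompany histone synthesis were read from lists. Of 26 genes for histone mRNA transcription and 3′ processing, 5 rose in KHR and none fell, with a list median of 0.14, where 2.71% of all genes were called higher and 1.03% lower. Npat, the coactivator of replication-dependent histone genes, had 8.81, 8.98 and 9.16 in KHR, against 8.06, 8.32 and 8.45 in KR. Slbp, which binds the stem-loop of histone mRNAs, had 7.87, 8.06 and 8.35 in KHR, against 7.01, 7.42 and 7.54 in KR. Neither gene's groups overlapped. The changes were 0.72 ± 0.10 for Npat (limma adjusted p of 0.00125) and 0.73 ± 0.11 for Slbp (limma adjusted p of 0.00209). Casp8ap2 (FLASH), a component of histone locus bodies, had 8.15, 8.60 and 9.47 in KHR, against 7.41, 7.63 and 7.78 in KR, and rose by 1.00 ± 0.18 with a limma adjusted p of 0.00661. Cpsf4, a subunit of the cleavage machinery, rose by 0.49 ± 0.10 (limma adjusted p of 0.0129). Eri1, an exonuclease acting on histone mRNA ends, rose by 0.76 ± 0.20 (limma adjusted p of 0.0471), a call kept in 4 of the 12 fits that leave out an array. Lsm11, a protein of the U7 particle that trims histone pre-mRNA, had a change of 0.16 ± 0.10 and was not called (limma adjusted p of 0.508).

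Of 24 histone chaperone genes measured, 7 rose and none fell, with a list median of 0.22 (2.71% and 1.03% over all genes). Asf1b, a replication-linked carrier of H3 and H4, had 9.13, 9.40 and 9.90 in KHR, against 7.96, 8.28 and 8.51 in KR. Every KHR array was above every KR array, and the change was 1.17 ± 0.13 with a limma adjusted p of 0.000296. Chaf1b, a subunit of chromatin assembly factor 1, rose by 0.94 ± 0.15 (limma adjusted p of 0.0029). Its partner subunit Chaf1a had 6.10, 7.02 and 7.59 in KHR, against 5.97, 6.52 and 7.02 in KR, and the change of 0.45 ± 0.22 was not called (limma adjusted p of 0.354). Nasp, which buffers soluble H3 and H4, rose by 0.77 ± 0.14 (limma adjusted p of 0.00713). Hat1, which acetylates newly made H4, rose by 1.05 ± 0.27 (limma adjusted p of 0.0488), and that call was lost in 8 of the 12 fits that leave out an array. Rbbp7 rose by 0.36 ± 0.08 (limma adjusted p of 0.0245), and its call was lost in 4 of those 12 fits. Tonsl rose by 0.75 ± 0.18 (limma adjusted p of 0.0355), and its call was lost in 8 of 12, with adjusted p up to 0.0844. Mcm2, also in the replication list, rose by 1.17 ± 0.16 (limma adjusted p of 0.00132) and kept its call in all 12.

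Histone variants made outside the clusters include replication-independent histones such as H3.3 and H2A.Z, the centromeric Cenpa and germ cell histones. Of 14 measured, 1 rose and none fell, with a list median of 0.03 (2.71% and 1.03% over all genes). With the muscle mean as a covariate 0 were called higher. H2az2, an H2A.Z gene, had 7.86, 8.03 and 8.21 in KHR, against a KR median of 7.47 and a KR maximum of 7.76, with no overlap, and rose by 0.63 ± 0.14 (limma adjusted p of 0.0198). The other H2A.Z gene, H2az1, had a change of 0.19 ± 0.12 (limma adjusted p of 0.506). H2ax, the variant phosphorylated at DNA breaks, had a change of -0.03 ± 0.15, and H3f3b, an H3.3 gene, one of -0.02 ± 0.10, with limma adjusted p of 0.953 and 0.967. H3f3a and H1f0 are not analysed here.

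DNA replication genes were read as a further list, and the share of cells in S phase was not measured. Of 37 measured, 31 rose in KHR and none fell (2.71% and 1.03% over all genes), with changes of 0.48 to 1.62 and a median of 0.93. The list's mean level per array was 8.15 to 8.51 in KHR, against 7.21 to 7.42 in KR, with no overlap. The members' median level per array was 5.35, 5.69 and 5.97 in KHR, against 5.20, 5.47 and 5.54 in KR, with overlap. The difference in change between the lists was not tested.

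**Figure D5:**
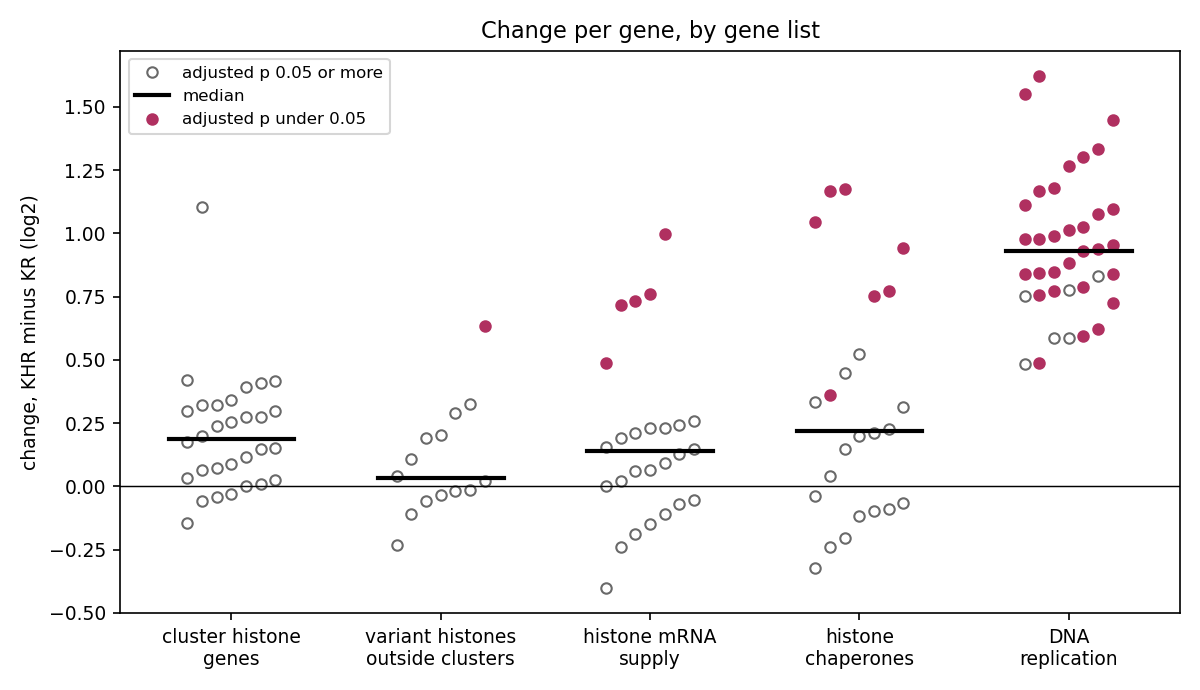
Change per gene, KHR minus KR in log2 units (y axis), for the 30 members and the 4 lists (x axis); filled points have a limma adjusted p under 0.05, open points do not, and the bar is the list's median. Filled points number 0 of 30 for the cluster histone genes, 1 of 14 for variants, 5 of 26 for histone mRNA supply, 7 of 24 for chaperones and 31 of 37 for DNA replication.

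The tumour makeup on the arrays was as follows. The mean of 8 keratinocyte markers was 12.2 to 12.5 in KHR and 12.1 to 12.3 in KR, so these markers of oral epithelium were present on all arrays, with 0 of 8 called. Markers of skeletal muscle ran from 5.70 to 8.04 in KHR and from 5.63 to 6.92 in KR (0 of 20 called). Leukocyte markers ran from 6.55 to 6.92 in KHR and from 5.97 to 6.76 in KR (0 of 11 called). Median changes were 0.51 for muscle (18 of 20 above 0), 0.27 for leukocytes (9 of 11) and -0.01 for keratinocytes (3 of 8). The members' median was 0.19, with 25 of 30 above 0. The part of leukocyte content in the members' changes was not tested. With the muscle mean as a covariate, 4 of 30 members were called higher, Hist1h1b, Hist1h1e, Hist2h2ab and Hist2h2ac, against 2.00% of all genes in that fit. Xist was between 11.04 and 12.43 on 4 KHR arrays and at 12.10 and 12.45 on 2 KR arrays, and between 3.81 and 4.73 on the others, and with it as a covariate 0 members were called, with a lowest limma adjusted p of 0.0556.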

How the data were processed

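The deposited values were log2 intensities, 1 per probeset and array for 269751 probesets on 12 arrays, made by the authors. The submitters' processing notes name Partek without a version. How background and scaling were handled, and the build used, is not given in the sources used here. The log base was read from the range of the values. Array medians lay between 5.62 and 5.75, and the highest correlation between arrays was 0.97. The number of arrays limits the precision.

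GEO's platform annotation, which is old, gave 1 symbol to 233753 probesets, several to 5106 and none to 30892. Single-symbol probesets were summarised per gene by their median, for 23102 genes with a median of 8 probesets, 2303 of them on 1. Member symbols were kept as on the platform. Other symbols were updated through synonyms in RefSeq (GRCm38.p6). Promoter windows came from the same source.

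The groups were compared gene by gene, two-sided and without covariates, by lmFit and eBayes of limma 3.58.1 (R 4.3.3), and p-values were adjusted by Benjamini-Hochberg over all genes with a threshold of 0.05. The scripts were tested on simulated data. Tables used Python 3.11.15, pandas 2.3.3 and numpy 2.4.6, and figures matplotlib 3.10.9. Groups came from the source labels. Each family's 2 members with the smallest p and its member with the highest level, the testis genes, the counterparts outside the clusters, a fixed set of processing and chaperone genes, and members moved across the threshold by 1 array are given in full, and the others by their change. Alternatives covered the probeset summary, scaling, filters on dim genes and on single probesets, eBayes settings, array weights, a replicate block, Xist and muscle covariates, a stricter threshold, each array left out, shared probesets kept and a test per probeset. The members and lists were chosen with earlier results of these data known.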

Additional observations from a re-analysis of the deposited data

Results flagged for a closer look

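Of 84 groups of 6 arrays tested over 42 genes, 3 held an array far from the others by Dixon's test at the 95% level, and chance alone flags about 1 in 20. Hist1h2af (H2A) reached 10.88 on KR 1, with the next KR array at 10.07. Hist1h4m (H4) reached 8.61 on KR 1, with the next KR array at 8.03. Casp8ap2, a component of histone locus bodies, reached 9.47 on KHR 5, with the next KHR array at 8.64. Without that array the call for Casp8ap2 was kept, as it was in all 12 fits that leave out an array, with limma adjusted p from 0.00188 to 0.0182.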

How the results depend on the processing

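No member was called higher in the fit as reported. Counts of members called higher were 3 with array weights, 1 with a mean over probesets, 1 with a median polish, 2 among genes above the median level, 1 among genes with at least 2 probesets, 4 with the muscle mean as a covariate, and 0 to 3 when each array was left out (1 without KHR 2, 3 without KHR 5, 2 without KR 1). Over all genes, 973 were called higher with a mean over probesets and 790 with a median polish, against 625 in the fit as reported. The share was 2.00% with the muscle covariate. With an array left out, 523 to 1085 genes were called in either direction. For array weights and the filters the share over all genes is not given here, so those counts have no background. With shared probesets kept, 1 H3 probeset was called higher and 1 lower. Filters left fewer genes to adjust over; for the other settings the cause was not tested. The change was above 0 for 23 to 26 of 30 members over the fits with all members. Hist1h1c and Hist1h1t turned sign with a mean over probesets and with a median polish, as did Hist1h4m, which with Hist3h2a also turned under quantile normalization. Hist1h2bp turned with a mean over probesets and, with Hist1h4h, when array medians were subtracted. The members' median change was 0.13 to 0.25 over arrays left out and 0.11 to 0.31 over the other alternatives. The H2A median was 0.30 among genes above the median level and 0.76 among genes with at least 2 probesets. The value of 0.76 rests on Hist2h2ab (0.42) and Hist2h2ac (1.10) alone, as every other H2A member has 1 probeset. Those genes also had the smallest p of the family. H3 has no median, having no member. The description of shared H3 probesets and the medians over members that passed a filter were chosen after seeing the data.

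Replicate numbers appear in the labels of both groups, but the pairing was not borne out: correlations of same-numbered deviations were 0.23, 0.04, -0.003, 0.17, 0.05 and 0.01, and not every number correlated best with its own. With the replicate block 0 members were called, with a lowest limma adjusted p of 0.0548.

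Over all genes 863 were past the threshold, against 555 with Xist as a covariate, 1445 with a mean over probesets, 312 at a threshold of 0.01, 523 to 1085 with an array left out, and 2382 probesets when tested singly. Calls were higher for 625 of 863 genes, against 480 of 845 under quantile normalization and 535 of 827 with array medians subtracted. Variant histones called higher were 2 with a mean over probesets or a median polish, and 0 with the muscle covariate or a threshold of 0.01. Chaperones called higher were 4 at 0.01 and 4 to 8 with an array left out (4 without KHR 3, KR 2 or KR 6). Processing genes were 3 at 0.01. Hat1 kept its call in 12 of 23 settings at a threshold of 0.05. The calls of Slbp, Npat, Casp8ap2, Asf1b, Chaf1b and Nasp held in all 23.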

Other observations

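Of 8 fibroblast markers 1 fell in KHR, Col1a2, and 0 of 6 endothelial markers were called, beside the 3.74% of all genes called in either direction. The list means ran from 8.06 to 9.01 in KHR and from 7.87 to 9.16 in KR for fibroblasts, and from 7.06 to 7.45 in KHR and from 6.96 to 7.89 in KR for endothelium. After Hist1h2af and Hist1h4m, the pairs with the highest correlation over 12 arrays, group means removed, were Hist1h2ak with Hist1h4m (0.89) and Hist1h1b with Hist4h4 (0.88).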
